A study of Drosophila melanogaster with 3 samples.

Results

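The cuticle protein genes of Drosophila melanogaster were examined in OSS cells, a stable somatic line that the labels trace to follicular stem cells of the ovary. The genes were chosen by symbol: the numbered Cpr genes, the larval (Lcp), pupal (Pcp) and Acp65A adult cuticle protein genes, the Ccp84 genes, the Tweedle (Twdl) genes and the ecdysone-dependent (Edg) genes, each with a probe set that the array's annotation assigns to 1 gene. They numbered 105 of the 11982 genes named in that way. The RefSeq gene table lists 125 genes whose symbols match it, and the 20 others, among them Lcp1, Lcp2, Lcp3 and Lcp4, had no such probe set in the annotation used and are not analysed as genes here.

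All 3 samples formed 1 group of untreated cells in exponential growth, kept in medium with fetal bovine serum, insulin, glutathione and fly extract, and no other condition was labelled. OSS is an established line, and the labels leave unsaid whether the 3 samples were separate cultures. Each SD thus describes how these 3 samples differed, possibly for technical reasons alone, and each limma p-value shares that limit. For a gene with identical values on the 3 arrays, the p-value rests on a spread borrowed from other genes. The background level that genes were tested against was taken as known without error. Total RNA was converted to biotin-labelled cRNA and hybridised to Affymetrix expression arrays, and the values are log2 expression levels per probe set. The lowest value, 2.39, is shared by the 3 arrays. Because probe sets differ in affinity, a higher value of one gene than of another does not measure more transcript.

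Cuticle proteins are secreted by the epidermis and by other tissues of ectodermal origin, such as the tracheae, and assemble with the polysaccharide chitin into the layered exoskeleton. Most proteins of the large CPR family carry the Rebers-Riddiford domain, which binds chitin, while the Tweedle proteins form a separate insect family. Many of these genes lie in tandem clusters, and pulses of the moulting hormone ecdysone time their expression to larval, pupal or adult cuticle deposition. Follicle cells of the ovary secrete a different coat, the eggshell.

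Most cuticle protein genes gave no signal above background in OSS cells. The level taken as background was 2.49, the 95th percentile of the means of 112 genes for receptors of smell and taste, which were assumed to be off in a cultured ovarian line. A gene was called above background at an adjusted p under 0.05 (limma, one-sided, Benjamini-Hochberg adjustment over all named genes). Of the 105 cuticle protein genes 9 (8.57%) were above background, against 46.4% of the 11765 named genes outside the cuticle and receptor lists. The remaining 96 were not above it, which does not show that their transcripts were absent. These are bulk samples, in which few cells with a transcript and little of it per cell cannot be told apart. The median level of the cuticle protein genes was 2.39 and that of the other named genes 2.48. At a stricter level, 1 log2 unit over background, 2 cuticle protein genes, Cpr67Fa1 and TwdlK, were above, against 25.6% of the other named genes. Of the 112 receptor genes themselves 4 were called above background, the highest being Gr39a at 2.79.

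**Figure D1:**
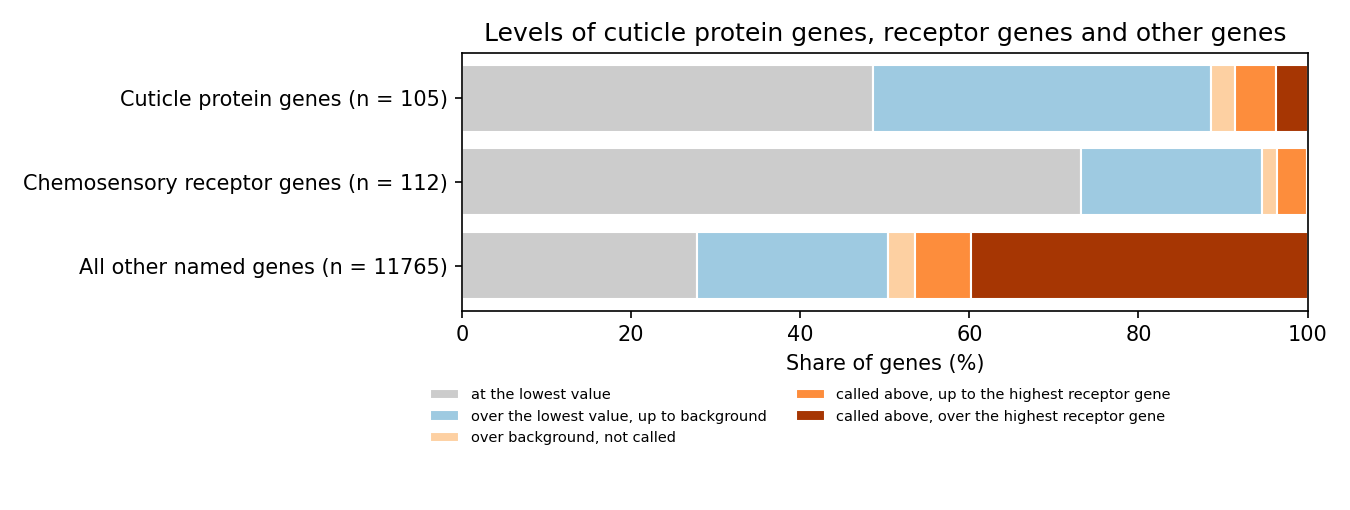
Share of genes (x axis, percent) in 5 classes of level, for 105 cuticle protein genes, 112 chemosensory receptor genes and 11765 other named genes; each bar adds up the classes from the lowest value at the left to genes called above background and over the highest receptor gene at the right. Genes at the lowest value or up to background fill most of the bars of the cuticle protein genes and the receptors, and 3.81% of the cuticle protein genes against 39.8% of the other genes fall in the rightmost class.

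The silent majority fell into a large group at the floor of the scale and a second group just over it. All 3 arrays gave the lowest value for 51 of the 105 cuticle protein genes (48.6%), compared with 27.8% of the other named genes and 73.2% of the receptor genes. A further 42 lay over the lowest value and up to the background level, with a median of 2.40 and the highest, Cpr12A, at 2.46; 22 genes were within 0.01 log2 units of the lowest value without being at it. The other 3 genes that were not called, Twdlbeta, TwdlO and Cpr65Aw, had means over the background level.

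**Figure D2:**
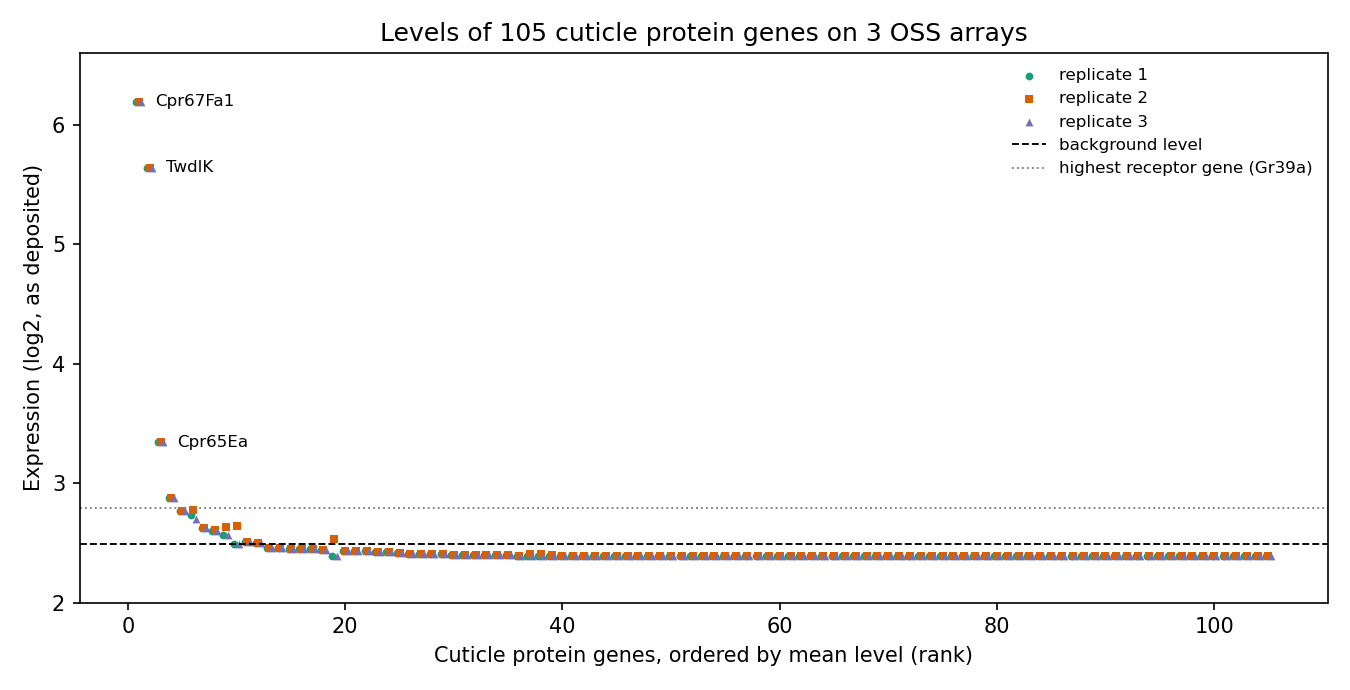
Expression (y axis, log2 as deposited) of the 105 cuticle protein genes ordered by mean level (x axis, rank), with 1 symbol per array; the dashed line is the background level of 2.49 and the dotted line the highest receptor gene at 2.79. Cpr67Fa1, TwdlK and Cpr65Ea stand off to the upper left, and the 51 genes at the right lie on the lowest value of 2.39.

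The first of the exceptions were 2 genes more than 3 log2 units over background. Cpr67Fa1, a CPR family gene, measured 6.19 on replicates 1, 2 and 3, which is 3.70 log2 units over background (limma, adjusted p = 1.41e-05). TwdlK, a Tweedle gene, measured 5.64 on each of the 3 arrays, 3.15 log2 units over background (limma, adjusted p = 1.41e-05). The values of both genes were identical to every deposited digit on the 3 arrays, so their SD of 0 understates the measurement error, and the spread in their tests was borrowed from genes that varied. Both were called under all 16 alternatives tried, but each gene has 1 single-gene probe set, so the alternatives on the choice of probe set moved only the background level for them.

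A second probe set bears on Cpr67Fa1. It is annotated to Cpr67Fa1 and its neighbour Cpr67Fa2 together, so it was left out of the gene results, and it measured 2.50 on every array. The probe set of Cpr67Fa2 alone measured 2.44 on every array. The signal of Cpr67Fa1 thus rested on 1 of the 2 probe sets that name it. Which of them reflects the transcript was not tested, and the sequences of the probes were not used here. TwdlK was measured by a single probe set.

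Another pair of CPR genes lay over every receptor gene. Cpr65Ea measured 3.34 on replicates 1, 2 and 3, 0.85 log2 units over background (limma, adjusted p = 4.6e-05). Cpr64Ac measured 2.87 on each of the 3 arrays, 0.39 log2 units over background (limma, adjusted p = 0.000189). With Gr39a, the highest receptor gene, as the level, these 2 genes, Cpr67Fa1 and TwdlK were the 4 cuticle protein genes still called.

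The remaining 5 of the 9 genes lay between the background level and Gr39a, in a range that chemosensory receptors also reached. TwdlD, in which a dominant allele is known to shorten the larval and pupal body, measured 2.76 on every array (limma, adjusted p = 0.000368). Cpr11A measured 2.73 on replicate 1, 2.78 on replicate 2 and 2.70 on replicate 3, with a mean of 2.74 ± 0.040 (SD, n = 3; limma, adjusted p = 0.00336). All 3 arrays were over background for Cpr11A, and it was the only cuticle protein gene with a different value on each array.

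The other 3 were within 0.14 log2 units of background. Cpr78Cb measured 2.63 on every array (limma, adjusted p = 0.00155). Cpr73D measured 2.60 on each of the 3 arrays, with an SD of 0.0041 (limma, adjusted p = 0.00263). Ccp84Ae, of a cluster of genes for larval and pupal cuticle proteins, measured 2.57 on replicates 1 and 3 and 2.63 on replicate 2 (limma, adjusted p = 0.0256). Without replicate 1 none of these 3 was called (limma, adjusted p = 0.0648, 0.0878 and 0.13, in that order). Without replicate 2 neither Cpr73D (limma, adjusted p = 0.0648) nor Ccp84Ae (0.0972) was called, and without replicate 3 Ccp84Ae was not (0.0977). In each case the fit had fewer samples.

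Just outside the calls stood Twdlbeta, TwdlO and Cpr65Aw. Twdlbeta measured 2.49 on replicates 1 and 3 and 2.64 on replicate 2, with a mean of 2.54 ± 0.086 (SD, n = 3; limma, adjusted p = 0.363). Replicate 2 was the highest of the 3 for Twdlbeta, and the other arrays lay within 0.001 log2 units of the background level. TwdlO measured 2.51 on every array (limma, adjusted p = 0.132) and Cpr65Aw measured 2.50 on every array (limma, adjusted p = 0.191). Next came Cpr12A and TwdlL, both at 2.46, and Edg84A at 2.45, each the same on every array and under the background level.

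**Figure D3:**
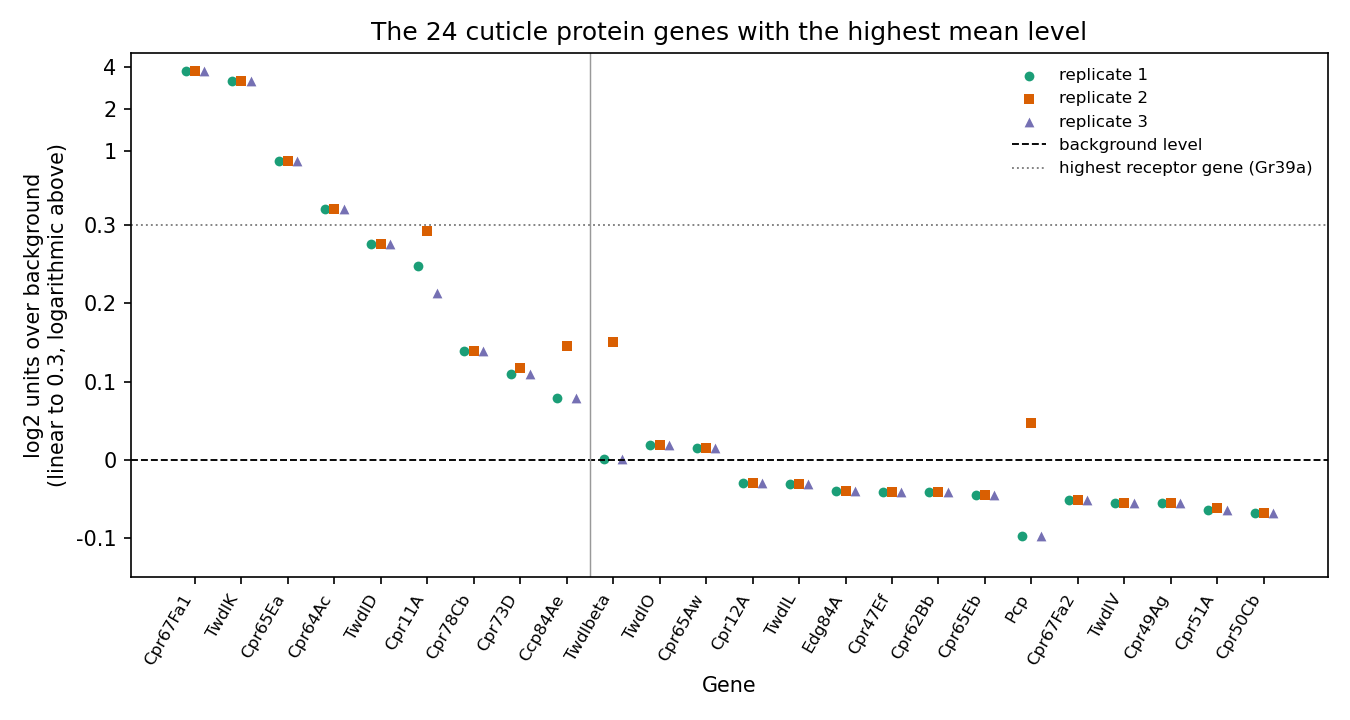
Difference from the background level (y axis, log2 units, linear up to 0.3 and logarithmic above) for the 24 cuticle protein genes with the highest means (x axis), with 1 symbol per array; the grey vertical line separates the 9 genes called above background from the rest, and the dotted line marks Gr39a. The 4 leftmost genes lie over the dotted line, and replicate 2 stands apart for Ccp84Ae, Twdlbeta and Pcp.

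Values were identical on the 3 arrays for 93 of the 105 cuticle protein genes (88.6%), against 59.2% of the other named genes and 93.8% of the receptor genes. The 51 genes at the lowest value are among the 93, and a gene held at that value cannot vary. Off the lowest value, 42 of 54 cuticle protein genes (77.8%), 76.7% of the receptor genes and 43.5% of the other named genes were identical, and these shares were not matched for level. Of the 12 that varied, 8 had the same value on replicates 1 and 3 and another value on replicate 2. Replicate 2 was the higher in all 8, which were Ccp84Ac, Ccp84Ae, Cpr49Ac, Cpr51A, Cpr73D, Lcp65Af, Pcp and Twdlbeta. For Ccp84Ac and Lcp65Af replicates 1 and 3 lay at the lowest value, and for Cpr49Ac and Pcp within 0.001 log2 units of it. In these genes replicate 2 had almost no room to be lower. Among the other named genes 7.16% differed on replicate 2 alone, near the 7.62% of the cuticle protein genes. Replicate 2 was the higher in 543 of those 842 other genes. With replicates 1 and 3 off the lowest value, it was the higher in 425 of 724. Pcp, a pupal cuticle protein gene, measured 2.39 on replicates 1 and 3 and 2.53 on replicate 2, so it was over background on 1 array and not called. Twdlalpha differed on replicate 1 alone, and Lcp65Ad and TwdlR on replicate 3 alone, each by less than 0.01 log2 units.

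By subfamily, the 66 measured Cpr genes included 6 above background (9.09%) and 31 at the lowest value, with a median of 2.39. Their highest was Cpr67Fa1, and Cpr11B was among those at the lowest value. Of the 24 Tweedle genes 2 (8.33%), TwdlK and TwdlD, were above background and 13 lay at the lowest value, TwdlB among them. Both shares are near the 8.57% of all 105 cuticle protein genes, and no subfamily was tested against that share. Tb, the gene of the Tubby mutation and a Tweedle gene whose symbol falls outside the rule, measured 2.39.

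The smaller subfamilies had 1 gene above background in all. None of the 7 Lcp genes was above, and none had a mean over background. Against the 8.57% called among all 105 genes, 0 in 7 does not set the Lcp genes apart. Of the 7, 4 lay at the lowest value, Lcp65Aa with both of its probe sets, and the highest mean, that of Lcp65Af, also rounded to 2.39. Of the 3 Ccp84 genes Ccp84Ae was above background, while Ccp84Ac and Ccp84Ag measured 2.39. The 3 ecdysone-dependent genes Edg84A, Edg78E and Edg91 measured 2.45, 2.39 and 2.39, and the adult cuticle gene Acp65Aa measured 2.39. Cpr47Ef was, with Lcp65Aa, the only cuticle protein gene with a second probe set of its own, and its 2 probe sets measured 2.45 and 2.39.

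Of the clusters of cuticle protein genes, most held no called gene. Gene order was taken from RefSeq, and genes separated by at most 3 others were joined into a cluster. This gave 16 clusters of at least 2 measured cuticle protein genes, with 77 genes between them. In 10 of the 16 clusters no gene was above background. These included the cluster from Lcp65Ag3 to Cpr65Az, with 11 measured genes and Cpr65Aw as its highest. They also included the 8 genes from Cpr49Aa to Cpr49Ah, whose highest was Cpr49Ag at 2.43, and the 7 genes from Cpr47Ea to Cpr47Eg, whose highest was Cpr47Ef at 2.45. In the 2 genes Cpr97Ea and Cpr97Eb every array gave the lowest value. With only 8.57% of all 105 genes called, clusters without a called gene are common in any grouping. The count of 10 was not tested against that share and does not set the clusters apart.

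Across the 9 called genes, 7 measured cuticle protein genes lay directly beside one of them, and 0 of the 7 were called by limma or had a p under 0.05 before adjustment. Against a share of 8.57% called among all 105, a count of 0 in 7 is near the background and does not set the neighbours apart. TwdlK lies between TwdlO at 2.51 and TwdlJ, which is not analysed here, in the cluster of 12 measured Tweedle genes from TwdlM to TwdlQ whose median was 2.39. TwdlD, in the same cluster, has no measured cuticle protein gene beside it. Cpr65Ea is followed by Cpr65Eb at 2.44 and then by Cpr65Ec at 2.39. Cpr64Ac lies between Cpr64Ab at 2.40 and Cpr64Ad at 2.39, and Cpr78Cb between Cpr78Ca and Edg78E, both at 2.39. The genes on either side of Ccp84Ae, Ccp84Af and Ccp84Ad, are not analysed here.

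**Figure D4:**
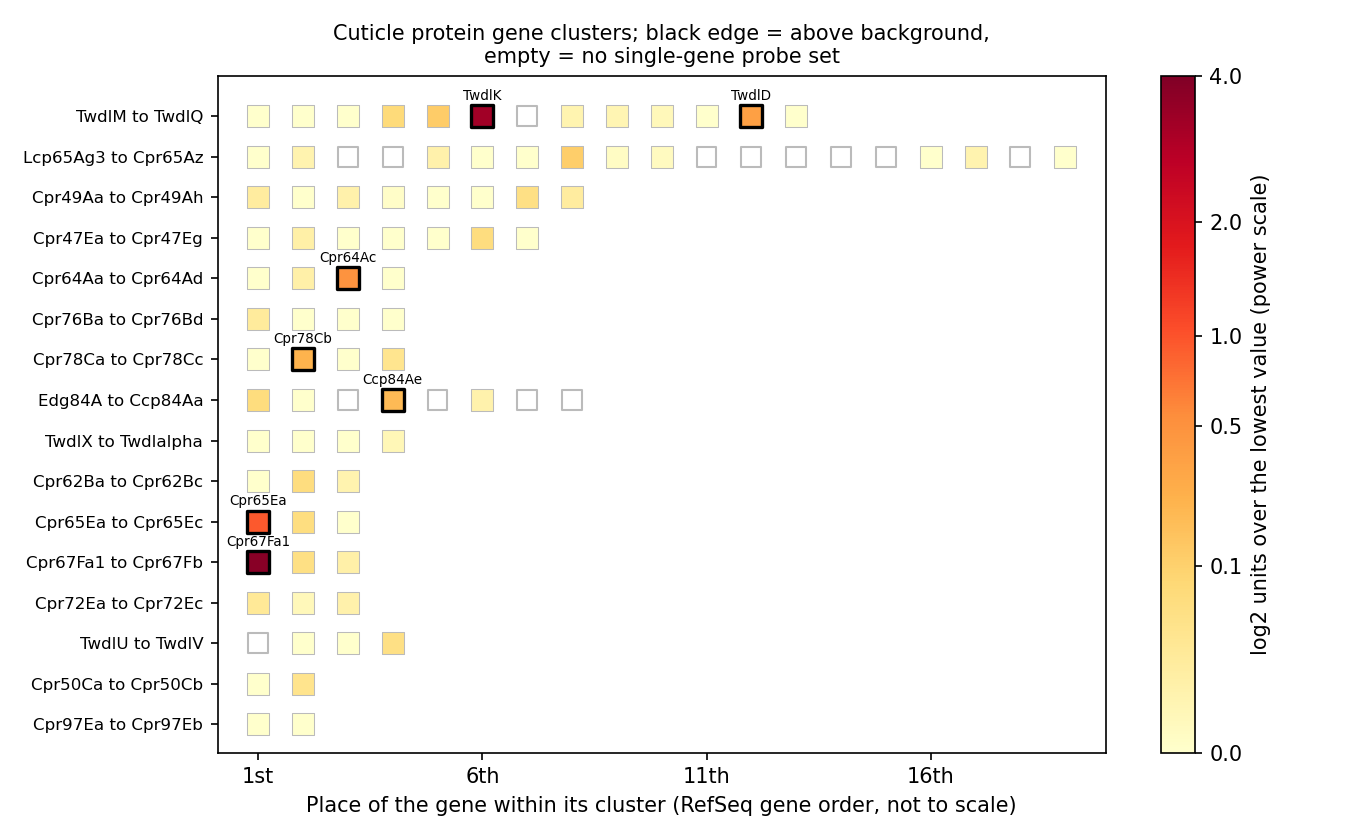
Each row is a cluster of cuticle protein genes and each square a gene in RefSeq order (x axis, place within the cluster, not to scale); colour gives the mean level in log2 units over the lowest value, a black edge marks genes above background and white squares have no single-gene probe set. The named square of TwdlK lies in the row from TwdlM to TwdlQ, and the row from Lcp65Ag3 to Cpr65Az has no black edge.

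Genes of other kinds beside the called genes were measured as well. Cpr67Fa1 is preceded by OXA1L, a gene for a mitochondrial membrane protein insertase, which measured 6.48 on every array and was above background, and Cpr67Fa2 follows at 2.44. Of the 6 measured genes of other kinds directly beside a called cuticle protein gene, OXA1L was the 1 above background. Cpr73D overlaps Ogdh, a gene of the tricarboxylic acid cycle enzyme oxoglutarate dehydrogenase, which measured 5.92 on every array, and also the odorant-binding protein gene Obp73a at 2.41. The part of these neighbours in the values of Cpr67Fa1 and Cpr73D was not tested.

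The wider cuticle pathway was measured on the same arrays, and the counts of its lists are to be read against the 46.4% called among the other named genes. Chitin is built from UDP-N-acetylglucosamine by a chitin synthase at the apical membrane, and the supply of that precursor serves protein glycosylation in all cells. Of 9 measured chitin synthesis genes 6 were above background, with a median of 2.91. The called genes included the precursor enzymes Gnpnat at 4.64 ± 0.11 (SD, n = 3), mmy at 4.03 on every array, Gfat2 at 3.85 ± 0.12 and Gfat1 at 3.81. They also included knk, whose product organises chitin, at 2.91 and exp, the companion gene of reb in chitin deposition, at 2.79, each on every array. The chitin synthase genes kkv and Chs2, and reb itself, all measured 2.39 and were not above. The other probe sets of Gnpnat measured 2.50 and 2.39, the second of Gfat1 2.94 and the second of exp 2.39. With the lowest probe set per gene 4 of the list's genes were above. Probe sets of shared sequence were taken to be those with names ending in _a_at, _s_at or _x_at. Whether they match any other gene was not tested. Without these probe sets 6 of the list's genes were still measured, and 3 of these were above.

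Genes whose products organise, cut or bind chitin were divided. Of 16 measured chitinase and chitin deacetylase genes 4 were above background, with a median of 2.40. The chitinase gene Cht2 measured 4.41 ± 0.33 (SD, n = 3) and Cht11 3.07 ± 0.0074, while Cda9 and Cht10 measured 2.39. The deacetylase genes serp and verm, which organise chitin in the tracheae, measured 2.61 and 2.57, and without replicate 1 or replicate 2 the list had 2 genes above. Of the 6 imaginal disc growth factors, chitinase-like proteins without the enzyme's activity, 4 were above, among them Idgf1 at 6.16 ± 0.55 and Idgf2 at 4.22 ± 0.021 (SD, n = 3), with Idgf6 at 2.48 and Idgf5 at 2.39. Of 13 peritrophin and obstructor genes for chitin-binding proteins 3 were above, with a median of 2.39, and 7 lay at the lowest value, obst-A and obst-B among them. Gasp, an obstructor family gene, measured 5.19 ± 1.48 (SD, n = 3; limma, adjusted p = 0.0494) and Peritrophin-15a 2.62 on every array. Gasp was not called without any 1 of the replicates (limma, adjusted p from 0.0546 to 0.156), and the list then had 0 or 1 gene above.

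Tanning enzymes harden and colour finished cuticle. Of 25 measured genes 10 (40%) were above background, near the share among the other named genes, with a median of 2.42. At the stricter level, 1 log2 unit over background, 2 of the 25 (8%) were above, against 25.6% of the other named genes. The nearness thus depended on the level, and neither difference was tested. Pu, whose enzyme opens the synthesis of pterins and of the cofactor of tyrosine hydroxylase, measured 4.81 ± 0.34 (SD, n = 3), and yellow-b measured 4.56 on every array. The dopa decarboxylase gene Ddc measured 3.02 ± 0.0076 and the laccase gene stw 2.66. The tyrosine hydroxylase gene ple, the yellow gene y, and Mco1 and Mco3 measured between 2.39 and 2.40 and were not above. With Gr39a as the level 5 of the list were above.

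Apical matrix proteins and regulators completed the pathway. Of 10 measured genes for ZP-domain proteins of the apical matrix 2 were above background, tyn at 3.18 ± 0.23 (SD, n = 3) and pio at 2.96 on every array. The other probe sets of pio both measured 2.39, and cyr and dyl lay at the lowest value. Without probe sets of shared sequence none of the list's 8 genes still measured was called. Without replicate 1 or replicate 3 the list had 1 gene above. Of 13 measured regulators of cuticle genes 6 (46.2%) were above, close to the share among the other named genes, with a median of 2.53. At the stricter level 1 of the 13 was above, against 25.6% of the other named genes, so this closeness also depended on the level. The ecdysone co-receptor gene usp measured 5.15 ± 0.057 and the ecdysone-induced gene br 3.89 ± 0.21 with its highest of 5 probe sets (SD, n = 3). The other br probe sets measured 3.69, 2.84, 2.39 and 2.39, and br was not called without replicate 1 (limma, adjusted p = 0.121). EcR, the receptor partner of usp, measured 2.79 on replicate 1 and 2.51 on replicates 2 and 3 and was not above (limma, adjusted p = 0.259). The list's other called genes were ovo at 3.55 ± 0.12, ftz-f1 at 3.22 ± 0.14 (SD, n = 3), Hr38 at 2.59 and rib at 2.53. Second probe sets of ftz-f1 and Hr38 measured 2.42 and 2.39. Both probe sets of grh, the epidermal transcription factor gene, measured 2.39, and so did Eip93F, Hr3 and Hr4. Without replicate 1 the list had 3 genes above. Of 6 other structural genes of cuticle and matrix outside the symbol rule 1 was above, frm at 3.25 ± 0.0069 (SD, n = 3). Vajk2 measured 2.43, and resilin, the gene of an elastic cuticle protein, and Vajk1 measured 2.39.

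**Figure D5:**
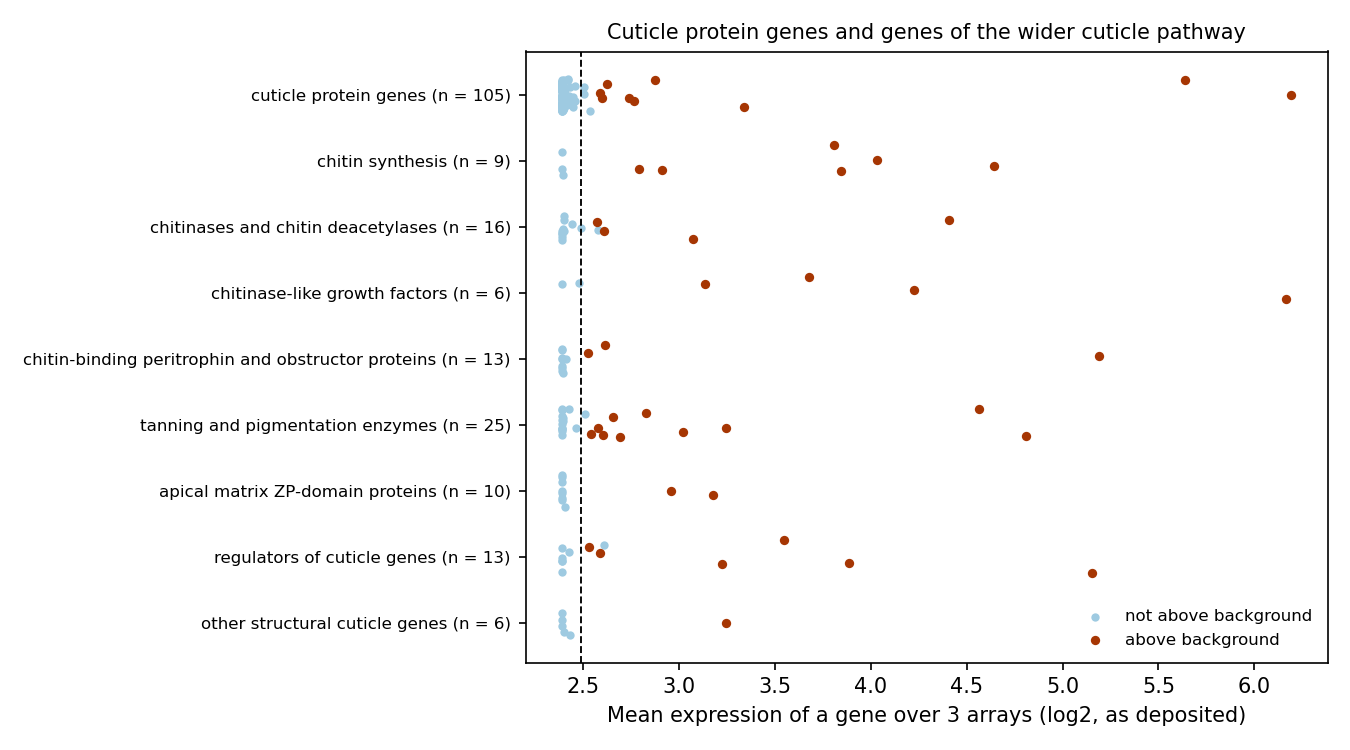
Mean expression over the 3 arrays (x axis, log2 as deposited) of the 105 cuticle protein genes and of 8 lists of genes of the wider pathway (rows, vertical spread only to separate points); dark points are genes above background, pale points genes not above it, and the dashed line the background level of 2.49. In the cuticle protein row 9 points are dark, against 6 of 9 in chitin synthesis and 10 of 25 in tanning and pigmentation.

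The labelled cell type was checked on lists of marker genes, whose specificity for the cell types was not tested. Their counts are to be read against the 46.4% called among the other named genes, and none was tested against it. Of 7 measured genes listed as ovarian somatic markers 5 were above background, among them tj at 6.83 ± 0.69 and piwi at 6.47 ± 0.50 (SD, n = 3). The listed genes cas and upd1 measured 2.39. The follicle cell marker Fas3 named by the labels is not analysed here. Of 8 germline markers 1 was above, aub at 2.79, with osk, bam and nanos at 2.39. Of 8 hemocyte markers 3 (37.5%) were above, near the share among the other named genes, so the count does not set them apart. At the stricter level 1 of the 8 was above, against 25.6% of the other named genes. The called markers included Pxn at 4.43 ± 0.27 and crq at 3.54 ± 0.062, while Hml and eater measured 2.39. A second probe set of Pxn measured 2.41. Of 8 measured genes listed as tracheal and epidermal markers, for tissues that make cuticle, 1 was above, bnl at 6.06 ± 0.99 (SD, n = 3). Its other probe sets measured 2.65 and 2.51, and bnl was not called without replicate 1 (limma, adjusted p = 0.0517). It is a growth factor gene, and its signal alone does not mark cells that make cuticle. The list's other genes lay between 2.39 and 2.43, with sha, an epidermal gene of actin-based hairs, btl and pnr at 2.39 and f at 2.43.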

How the data were processed

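Expression was measured on 3 Affymetrix arrays of 1 group. The deposited values are log2 levels per probe set; the log base was taken from their range, while how background, scaling and probe summary were handled is not given in the sources used here. Per the labels' protocols, scanner files entered custom scripts. The number of arrays limits the precision.

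Of 18952 probe sets 13647 carried 1 gene, 402 several and 4903 none in the platform annotation. Each gene took its probe set with the highest mean. All 105 members matched the RefSeq table of assembly Release 6 plus ISO1 MT by gene identifier, and it was used for names and gene order only. Values were used as deposited; Pearson correlations between arrays were 0.986 to 0.995 over probe sets.

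Each gene was tested against the background level in R 4.3.3 using limma 3.58.1 (a mean per gene, one-sided, Benjamini-Hochberg over 11982 genes). The prior spread (SD 0.030, 0.63 degrees of freedom) came from the 4815 genes whose values were not identical on all arrays and was applied to every gene. Values with an SD under 1e-09 counted as identical. The procedure was tested on simulated data in which the level was known and no lowest value was imposed. It called 36 of 50 genes set 0.25 log2 units over the level and 45 of 50 set 2 units over it. Of 11782 genes set under the level 1 was called. The simulation does not bear on the choice of the background level.

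The members and lists were chosen with earlier results of these data known. Named were all called members, the 6 highest not called, the highest and lowest of each subfamily, neighbours of called members, and the 2 highest and 2 lowest genes of each list (ties alphabetical); other genes were named after their values were seen. No sequences were used, and no coordinates are given because the files name no build.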

Additional observations from a re-analysis of the deposited data

Results flagged for a closer look

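One result came to notice because signal lay in a probe set outside the gene results. The probe set annotated to both Cpr67Fa2 and Cpr67Fa1 measured 2.50 on every array, 0.013 log2 units over the background level and short of the evidence needed for a call. The probe set of Cpr67Fa1 alone measured 6.19 and that of Cpr67Fa2 alone 2.44. The other 5 probe sets that name a cuticle protein gene together with another gene had means under the background level, the highest of them, for Lcp65Ag1 and Lcp65Ag2, at 2.44.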

How the results depend on the processing

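No paired analysis was possible because a single group was sampled. All 16 alternatives were planned. Of 1462 values for 92 results, 1332 left the call as reported or moved a count by no more than 1.5 times. A change of sign in a gene called under neither setting was not counted as a change. Cuticle protein genes above background numbered 13 with the 90th percentile of the receptors or with odorant receptors alone, 11 with the prior spread over all genes or as a trend and with the lowest or mean probe set, 6 with the 99th percentile or array medians equalised, and 6 to 8 without 1 array. Every call added was among TwdlO, Cpr65Aw, Cpr12A and TwdlL, and every call lost was among the 7 reported genes other than Cpr67Fa1 and TwdlK.

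With the highest receptor gene as the level 4 cuticle protein genes were above, 3 of them Cpr, 1 Twdl and 0 Ccp84. Chitinases then had 2, chitin-binding proteins 0, tanning enzymes 5, ZP-domain proteins 1 and germline markers 0. At the stricter level 2 cuticle protein genes (1.9%) and 3015 other genes (25.6%) were above, with 1 Cpr, 1 Twdl and 0 Ccp84. Chitinases then had 1, growth factors 2, chitin-binding proteins 0, tanning enzymes 2 and ZP-domain proteins 0. Regulators had 1, other structural genes 0, germline markers 0 and hemocyte markers 1. The Twdl count was 4 with the 90th percentile and 4 with odorant receptors alone. With the 99th percentile Ccp84 had 0, chitinases 2 and chitin-binding proteins 0; with array medians equalised these were 0, 2 and 1. Without probe sets of shared sequence chitin synthesis had 3, growth factors 2, chitin-binding proteins 1, ZP-domain proteins 0, regulators 3, other structural genes 0, ovarian markers 3 and hemocyte markers 1. With the lowest probe set per gene ZP-domain proteins had 1, regulators 3 and tracheal and epidermal markers 0. Without 1 array Ccp84 had 0 throughout, chitinases 2 to 3, chitin-binding proteins 0 to 1, ZP-domain proteins 1 to 2, regulators 3 to 4 and tracheal and epidermal markers 0 to 1.

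The level relative to background changed sign for the following genes, each called in either the reported or the alternative setting. Changes of sign in genes called in neither setting are not listed. At the stricter level it was -0.15 for Cpr65Ea, -0.61 for Cpr64Ac, -0.72 for TwdlD, -0.75 for Cpr11A, -0.86 for Cpr78Cb, -0.89 for Cpr73D, -0.90 for Ccp84Ae, -0.42 for Cht11, -0.87 for Peritrophin-15a, -0.31 for tyn, -0.53 for pio, -0.24 for frm and -0.69 for aub. With the highest receptor gene as the level it was -0.027 for TwdlD, -0.052 for Cpr11A, -0.16 for Cpr78Cb, -0.19 for Cpr73D, -0.20 for Ccp84Ae and -0.17 for Peritrophin-15a. With the 99th percentile it was -0.0056 for Cpr73D and -0.017 for Ccp84Ae. With the 90th percentile and with odorant receptors alone it was 0.037 and 0.035 for Cpr12A, 0.036 and 0.034 for TwdlL, and 0.057 and 0.055 for Idgf6. With the lowest probe set it was -0.058 for Gnpnat, pio and br and -0.038 for Pxn; without probe sets of shared sequence it was -0.10 for Gnpnat and pio. In these cases the level itself or the probe set was changed. Where calls were lost on equalising the array medians or leaving out an array, the cause was not tested.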
